A study of Mus musculus with 32 samples.

Results

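EVs caught on the liver surface by cellulose nanofiber (CNF) sheets were compared between day 4 and day 0 of the orthotopic ovarian cancer model. The comparison rests on 10 of the 32 mouse small RNA-seq libraries, 5 from day 0 and 5 from day 4, and on the 407 of 1513 miRNAs that reached 10 RPM (reads per 1000000 miRNA reads) in at least 5 of these 10 libraries. The mice were female nude mice (BALB/cSlc-nu/nu) aged 8 weeks, a strain without a thymus and so with few mature T cells. The model is made by transplanting ID8-T6, a subclone of the mouse ovarian carcinoma line ID8, into the left ovarian bursa. The labels give the site as diaphragm, whereas the study calls it the liver surface, the name used here. The labels do not say whether day 0 sheets were laid before or after the operation, and mice operated on without cells were not analysed here, so the operation and the cells cannot be told apart. ID8-T6 is 1 line, and nothing states whether sheets with the same replicate number came from 1 mouse.

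miRNAs are short RNAs that lower the output of target mRNAs, and they find those targets chiefly through the seed, bases 2 to 8 of the mature strand. Many leave cells inside EVs, small membrane vesicles, so the fluid on an organ carries miRNAs of the cells around it. Some are close to specific for a cell type, such as miR-122 for hepatocytes, miR-451a for red blood cells and miR-1a for muscle, which lets a mixed EV sample be read for its sources. In bulk material of this kind, fewer EVs of a cell type and less of a miRNA per EV cannot be told apart.

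The miRNAs on which the results turn are given here with the seed in capitals, from RefSeq for GRCm38.p6, in which 351 of the 407 tested miRNAs were matched. The miR-183 cluster lies at chr6:30165962-30169732 on the minus strand, in no annotated host gene of GENCODE M21, and its members have like but unequal seeds.
miR-182-5p: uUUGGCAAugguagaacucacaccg
miR-183-5p: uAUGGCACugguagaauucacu
miR-96-5p: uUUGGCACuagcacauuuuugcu
The miR-34 family shares the seed of miR-34a and miR-34b, shown because their members rose together. miR-34b maps to chr9:51103610-51103632 and miR-34a to chr4:150068473-150068494.
miR-34b-5p: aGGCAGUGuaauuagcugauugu
miR-34a-5p: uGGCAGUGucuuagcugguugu
miR-21a-5p and miR-21c, which differ only toward the 3′ end, could share reads. miR-21a is exonic to Vmp1 at chr11:86584120-86584141, whereas miR-21c lies on chromosome 8.
miR-21a-5p: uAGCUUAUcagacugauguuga
miR-21c: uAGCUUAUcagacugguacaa
miR-132-3p and miR-212-3p come from 1 transcript on chromosome 11, and miR-3473b and miR-3473e share a seed from chromosomes 10 and 5, the latter in an intron of Rbks.
miR-132-3p: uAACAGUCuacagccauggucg
miR-212-3p: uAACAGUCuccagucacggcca
miR-3473b: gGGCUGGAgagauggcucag
miR-3473e: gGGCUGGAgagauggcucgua
miR-196a-5p and miR-196b-5p, from the Hox clusters, and let-7i-5p and let-7g-5p are shown because of each pair with 1 seed the former was called and the latter was not.
miR-196a-5p: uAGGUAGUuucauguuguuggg
miR-196b-5p: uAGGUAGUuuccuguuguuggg
let-7i-5p: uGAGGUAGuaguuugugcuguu
let-7g-5p: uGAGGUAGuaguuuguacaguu
miR-31-5p (chr4:88910614-88910635, exonic to a lincRNA) was raised also in tumors of the intraperitoneal model, and miR-192-5p (chr19:6264857-6264877) and miR-802-5p (chr16:93369737-93369758) were called lower among the hepatocyte miRNAs.
miR-31-5p: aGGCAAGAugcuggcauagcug
miR-192-5p: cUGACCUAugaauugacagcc
miR-802-5p: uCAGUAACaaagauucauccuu

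By day 4 the liver surface EVs held more of 63 miRNAs and less of 12, among 407 tested, calls that needed a Benjamini-Hochberg adjusted p under 0.05 by limma and a difference over 1 on the log2(RPM + 10) scale. The background share is therefore 15.5% called higher and 2.95% called lower, or 18.4% in either direction. For 61 miRNAs every day 4 library lay above every day 0 library (15%), and for 12 every one lay below (2.95%). The median difference over all 407 was 0.20. Scaling by the median of ratios moved that median to -0.08 and turned the split to 44 higher and 37 lower, and TMM scaling moved it to -0.11 with 43 higher and 38 lower. No called miRNA changed direction under either. All 12 falls and 43 of the 63 rises were still called under both.

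The day 4 libraries were shallower, and none was as deep as the shallowest of day 0. They held 176124 to 661582 reads (median 540687), against 1053028 to 2540577 (median 1510636) on day 0 (exact two-sided permutation p = 0.00794, the smallest that 5 against 5 libraries allow, adjusted p = 0.0159 over 4 measures). By design, depth and day cannot be told apart. Thinning every library to 176124 reads left 53 calls higher and 10 lower, with 59 of the 75 calls in common. At that equal depth day 4 EVs showed 555 ± 28.9 miRNAs (SD, n = 5) and day 0 EVs 501 ± 23.8 (exact permutation p = 0.0159, adjusted p = 0.0212). Day 0 replicate 3 stood apart, with 459 miRNAs at equal depth and the highest hepatocyte miRNAs, and without it 59 miRNAs were called higher and 19 lower. Of 23 miRNAs that reached 10 RPM in exactly 5 libraries, 14 did so in the day 4 libraries alone, 11 of which were called higher, a difference that the filter favors. Of the 23, 2 (miR-802-5p and miR-126b-5p) did so in the day 0 libraries alone, and both were called lower. A further 20 reached 10 RPM in exactly 4 libraries and were not tested.

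The largest rises were those of the miR-183 cluster, 3 miRNAs cut from 1 transcript that are known from sensory organs and are high in many carcinomas. miR-182-5p stood at 53.2, 25.4, 17.7, 18.5 and 27.7 RPM in day 0 replicates 1 to 5 and at 499, 596, 954, 193 and 1776 RPM in those of day 4. Every day 4 library exceeded every day 0 library, and the difference was 4.12 ± 0.50 (log2 scale, SE, adjusted p = 0.000105). miR-183-5p rose from 15.6 ± 7.30 to 509 ± 384 RPM (SD, n = 5), with a difference of 4.09 ± 0.46 (adjusted p = 7.97e-05). miR-96-5p rose from 6.56 ± 2.45 to 192 ± 122 RPM, with a difference of 3.42 ± 0.38 (adjusted p = 7.97e-05). In all 3 the highest day 4 library was replicate 5 and the lowest replicate 4. These 3 calls, with those of miR-34c-5p and miR-125b-1-3p, were the only 5 of 75 that held under each of up to 30 alternative settings.

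**Figure D1:**
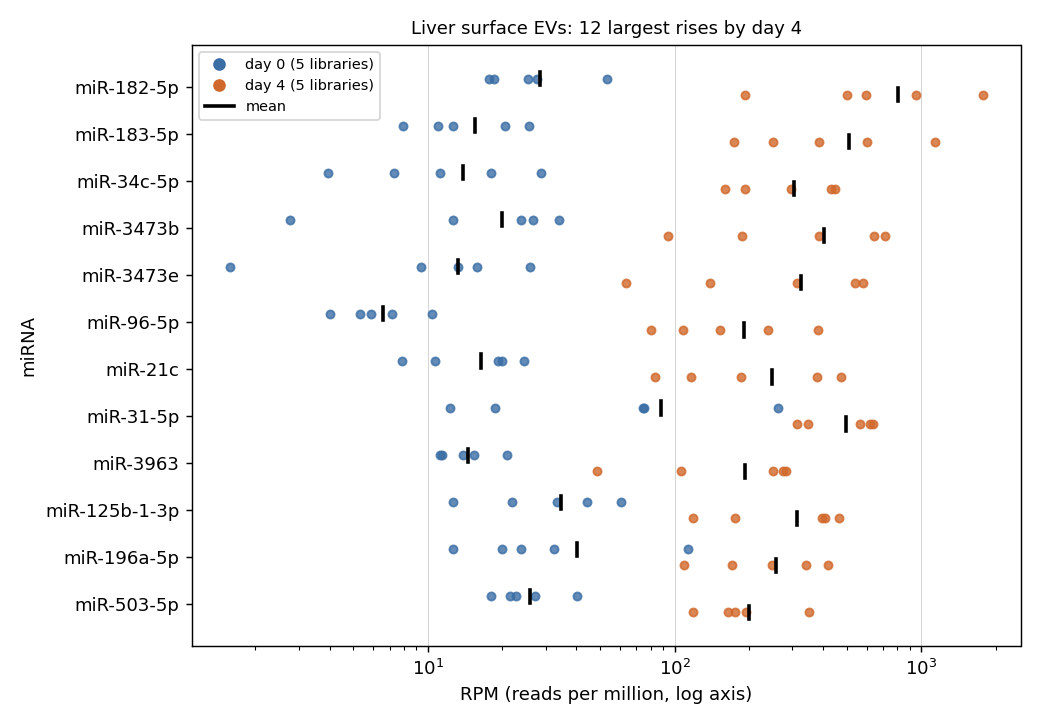
RPM (log axis) of the 12 largest rises among miRNAs whose day 4 mean was at least 100 RPM, in each of 5 day 0 (blue) and 5 day 4 (orange) libraries, with bars at the means. The groups are apart in all rows but that of miR-196a-5p, where day 0 replicate 1 reached 113 RPM.

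The miR-34 family, which p53 induces and which is also high in ciliated epithelium with its relative miR-449, rose with the cluster. miR-34c-5p was read at 3.94 to 28.7 RPM (median 11.2) on day 0 and at 159.8, 429, 295, 193 and 446 RPM on day 4. The days did not overlap, and the difference was 3.71 ± 0.39 (adjusted p = 7.97e-05). miR-34b, cut from the same transcript as miR-34c, was nearly unread on day 0. Its 5p strand went from 0 to 2.67 RPM (8 reads over the 5 libraries) to 15.4 to 49.9 RPM (78 reads), and its 3p strand from 1.69 ± 1.11 to 33.0 ± 10.5 RPM. Both strands were called higher, by 1.78 ± 0.24 and 1.85 ± 0.22, sizes that the pseudocount of 10 RPM holds down. miR-34a-5p, encoded elsewhere, rose from 45.3 ± 22.3 to 157 ± 64.4 RPM (difference 1.60 ± 0.38, adjusted p = 0.00879), with 1 day 4 library inside the day 0 range. Thus 4 of the 5 tested members of miR-34 and miR-449 were called higher and none lower, beside 15.5% called higher over all miRNAs. Their median difference was 1.78 beside 0.20 over all miRNAs, and miR-449a-5p was not called (0.11 ± 0.37, adjusted p = 0.872). Both miR-34b strands passed the filter of 10 RPM only through the day 4 libraries, where they are high, so this count is a description.

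Most miRNAs that were raised in tumors of other libraries were also higher here. In the intraperitoneal ID8 model, 14 miRNAs were higher both in CNF sheet EVs of tumor-bearing mice and in tumor tissue than in their normal counterparts (3 libraries each). There the cells were injected into the peritoneal cavity, the mice were taken on day 14 and the sheets were laid on the peritoneum. The normal tissue was ovary. Route, time and site thus differ from those of the liver surface sheets. Of the 14 miRNAs, 11 were called higher in day 4 liver surface EVs and none lower, beside 15.5% called higher over all miRNAs. Their median difference was 1.81, and the counts were 11 under both other scalings and 10 with edgeR or DESeq2 on recovered reads. The 11 include miR-31-3p, which passed the filter of 10 RPM only through the day 4 libraries. miR-96-5p, with a day 0 mean under 10 RPM, passed it chiefly through those libraries, so this count is a description. The list holds the miR-183 cluster and miR-34a-5p. miR-31-5p, often altered in carcinomas, stood at 12.3, 74.2, 261, 75.5 and 18.8 RPM on day 0 and at 348, 639, 619, 314 and 564 RPM on day 4. Its groups were apart although day 0 replicate 3 came close (difference 2.88 ± 0.58, adjusted p = 0.00305). The call was lost with edgeR (1.88, adjusted p = 0.0956) and with DESeq2 (1.75, adjusted p = 0.0615).

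Its other strand, miR-31-3p, rose from 2.06 ± 1.54 to 24.3 ± 5.97 RPM and passed the filter only through the day 4 libraries. miR-125b-1-3p, the passenger strand of a miR-125b hairpin, rose from 34.6 ± 18.9 to 313 ± 155 RPM (difference 2.80 ± 0.44, adjusted p = 0.000567). miR-184-3p rose from 10.0 ± 4.75 to 86.4 ± 72.8 RPM and miR-296-3p from 17.9 ± 7.44 to 106 ± 29.1 RPM, each with no overlap of the days. miR-210-3p, the best known miRNA of the response to low oxygen, stood at 196 to 335 RPM on day 0 and at 369.9 to 1233 RPM on day 4 (difference 1.57 ± 0.35, adjusted p = 0.00567). miR-9-5p, a further member, passed on p but not on size, at 0.74 ± 0.24 (adjusted p = 0.0400). Of the 18 miRNAs lowered in both tumor EVs and tumor tissue of that model, 3 were called lower on the liver surface (miR-1a-3p, miR-1b-5p and miR-203-3p), 1 was called higher (miR-494-3p), and their median difference was -0.71. Under the other 2 scalings 6 of the 18 were called lower, beside 37 and 38 of 407 over all miRNAs.

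Whole profiles lay closer to those of tumor-bearing mice on day 4. Across 389 miRNAs the rank correlation of each library with tumor-bearing intraperitoneal EVs minus that with normal intraperitoneal EVs was -0.189 ± 0.0435 on day 0 (SD, n = 5). On day 4 it was -0.0525 ± 0.0395, and no day 4 library fell within the day 0 range (exact permutation p = 0.00794, adjusted p = 0.0159). Day 4 exceeded day 0 by 0.136 on this measure, and by 0.0368 when all miRNAs with reads were used. Day 4 replicate 5 alone correlated slightly better with tumor EVs (0.824) than with normal EVs (0.814). The intraperitoneal sheets came from the peritoneum, those of tumor-bearing mice from a later day, so the reference profiles differ in site and time.

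Among miRNAs known from inflammation and wounding, 7 of 10 were called higher and none lower, beside 15.5% called higher over all miRNAs. Their median difference was 1.51. Of the 7, miR-21a-5p, miR-31-5p and miR-210-3p also belong to the miRNAs raised in tumors of the intraperitoneal model, so the counts of these lists overlap. Among the 7, miR-147-3p and miR-212-5p passed the filter of 10 RPM only through the day 4 libraries, where they are high, so this count is a description. miR-21a-5p, the most abundant miRNA on average on both days and one raised in many tumors and injuries, held 110762, 96752, 46751, 108096 and 90666 RPM on day 0 and 231282, 245028, 239496, 290682 and 185292 RPM on day 4. Every day 4 library was above every day 0 library (difference 1.44 ± 0.26, adjusted p = 0.00138). Its passenger strand miR-21a-3p rose from 27.0 ± 10.2 to 168 ± 74.8 RPM (difference 2.22 ± 0.35). miR-21c, with the same seed, rose from 16.4 ± 6.91 to 247 ± 170 RPM (difference 3.05 ± 0.45, adjusted p = 0.000393). Its ratio to miR-21a-5p was 0.000111 to 0.000227 on day 0 and 0.000339 to 0.00197 on day 4, so it did not follow miR-21a-5p at a fixed ratio.

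miR-132-3p, a CREB-induced miRNA, varied little on day 0, at 47.2 to 63.6 RPM (SD 6.47, n = 5), and stood at 217 to 477 RPM on day 4. The days did not overlap (difference 2.29 ± 0.30, adjusted p = 0.000150). All 4 strands of the miR-212 and miR-132 pair were called higher. Both miR-212 strands passed the filter of 10 RPM only through the day 4 libraries, where they are high, so this count is a description. The 2 smallest differences, those of miR-212-5p (1.10 ± 0.22) and miR-132-5p (1.14 ± 0.25), fell below the size threshold without replicate 2 (0.88 and 0.92). miR-147-3p, induced by Toll-like receptors in mouse macrophages, went from 2.12 ± 1.65 to 38.1 ± 12.5 RPM (difference 1.95 ± 0.24, adjusted p = 0.000105). Of the 3 members not called, miR-146b-5p differed by 1.22 ± 0.44 (adjusted p = 0.0658), miR-155-5p by 1.07 ± 0.50 (adjusted p = 0.150) and miR-146a-5p by -0.11 ± 0.45 (adjusted p = 0.898). Under the other 2 scalings 6 of the 10 were called higher, beside 44 and 43 of 407 over all miRNAs.

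Of 8 markers of leukocytes none was called in either direction, and their median difference was 0.02. Their summed level was 8974 to 48192 RPM on day 0 and 12445 to 44038 RPM on day 4. miR-342-3p (1.11 ± 0.52, adjusted p = 0.157) had the largest difference of the 8. Of 7 red blood cell miRNAs none was called either, and their sum was 3741 to 140258 RPM on day 0 and 30588 to 85541 RPM on day 4. miR-451a stood at 2565, 66455, 102989, 77163 and 18783 RPM on day 0 and at 23714, 39359, 42442, 46680 and 62012 RPM on day 4, with wide overlap (difference 0.43 ± 0.81). All 7 differences were above 0 on the log2(RPM + 10) scale and below 0 with edgeR and DESeq2. Recomputing RPM without the red blood cell and hepatocyte miRNAs gave 60 calls higher and 21 lower.

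Several miRNAs that share a transcript rose together. In the X-linked cluster of miR-322 and miR-503, relatives of miR-16 that restrain the cell cycle, 4 of 8 listed members were called higher under RPM and under both other scalings. Over all miRNAs 15.5% were called higher under RPM, and 44 and 43 of 407 under the other scalings. miR-503-5p rose from 25.9 ± 8.57 to 201 ± 88.8 RPM (difference 2.50 ± 0.33, adjusted p = 0.000150). miR-322-5p rose from 107 ± 77.5 to 357 ± 132 RPM with overlap, and miR-542-3p and miR-450b-5p rose by 1.78 ± 0.30 and 1.79 ± 0.30. All 8 differences were above 0, and 7 were under the other scalings. From Dnm3os on chromosome 1, a transcript of fibroblasts and other mesenchymal cells, miR-214-3p rose from 74.1 ± 31.0 to 366 ± 146 RPM (difference 2.14 ± 0.40, adjusted p = 0.00189), miR-214-5p by 1.22 ± 0.36 and miR-199a-5p by 1.20 ± 0.38. The last 2 calls were lost without some replicates, with adjusted p up to 0.0981 and 0.136. Both were also lost under the other 2 scalings and with the replicate block, and that of miR-199a-5p with edgeR and DESeq2.

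In the wider list of 13 fibroblast and smooth muscle miRNAs the other 10 members were not called, the median was -0.27, and miR-143-3p, a smooth muscle miRNA, differed by -0.98 ± 0.52 (adjusted p = 0.217). Under the other 2 scalings 1 of the 13 was called higher and 1 lower (medians -0.58 and -0.61), with edgeR 2 and 2, and with DESeq2 2 and 3. Over all 407 miRNAs these fits called 44, 43, 61 and 66 higher and 37, 38, 34 and 40 lower. In the imprinted Dlk1-Dio3 region of chromosome 12, 6 of 47 tested miRNAs were called higher and none lower, a share close to the background, with a median of 0.18. These were miR-134-5p, miR-341-3p, miR-494-3p, miR-540-3p, miR-370-3p and miR-409-3p. miR-134-5p, known from neurons, had the largest difference (2.26 ± 0.46, adjusted p = 0.00305), and miR-370-3p, miR-409-3p and miR-494-3p lost their calls without replicate 3. Under the other scalings 3 members of the region were called lower as well, beside 37 and 38 of 407 over all miRNAs. None of 10 miRNAs of the Sfmbt2 cluster and none of 11 of the miR-17 family and its clusters was called, with medians of 0.03 and 0.52.

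Both strands of 107 hairpins were tested. They differed in the same direction in 79, and in all 6 hairpins with both strands called (miR-21a, miR-31, miR-34b, miR-132, miR-212 and miR-214) both were higher. Both strands of miR-34b and miR-212, and miR-31-3p, passed the filter of 10 RPM only through the day 4 libraries. They are high there, so the count of 6 is a description. In 18 hairpins with 1 strand called, the other had the same sign in 15. Strand pairs come from 1 precursor and are not independent.

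**Figure D2:**
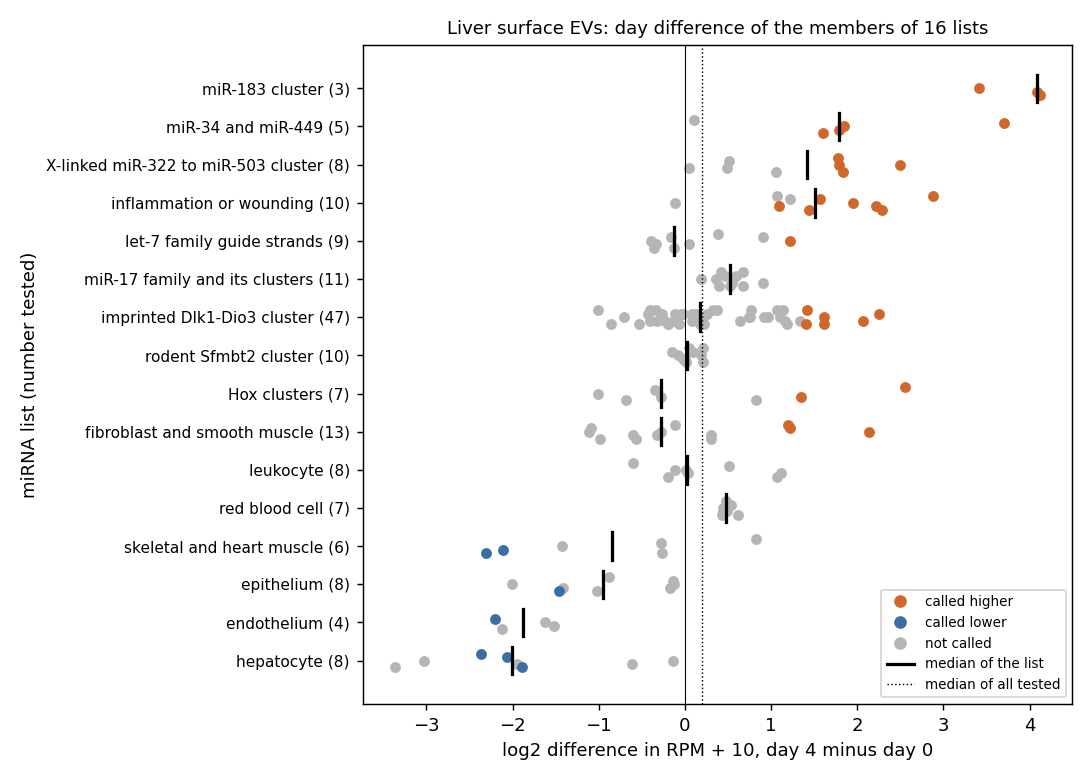
Log2 difference in RPM + 10, day 4 minus day 0, of each tested member of 16 miRNA lists, with orange points called higher, blue points called lower and gray points not called. Bars are the list medians, from 4.09 for the miR-183 cluster to -2.01 for hepatocytes, and the dotted line is the median of 0.20 over all miRNAs tested.

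miRNAs with late miRBase numbers or high GC content were called higher at shares above the 15.5% of all, which was not tested further. Of 27 tested miRNAs numbered 3000 or more, 8 were called higher (29.6%) and none lower. Under the other 2 scalings 7 were called higher and 1 lower, beside 44 and 43 higher and 37 and 38 lower over all 407. With edgeR 8 were called higher and 2 lower, beside 61 and 34, and with DESeq2 9 and 2, beside 66 and 40. miR-3473b and miR-3473e, of no settled function, went from 2.75 to 34.0 RPM to 93.7 to 709.7 RPM and from 13.2 ± 8.93 to 326 ± 231 RPM. Their differences were 3.58 ± 0.54 (adjusted p = 0.000449) and 3.57 ± 0.55 (adjusted p = 0.000472). They share a seed and most bases, and whether their reads can be separated was not tested. miR-3963 rose from 14.6 ± 3.96 to 193 ± 108 RPM (difference 2.82 ± 0.43). The other 5 were miR-3470a, miR-3470b, miR-5099, miR-5100 and miR-6538. On day 0, miR-5100 reached 10 RPM in replicate 3 alone (12.99 RPM, the others at 5.35 to 6.26 RPM). It passed the filter chiefly through the day 4 libraries, where it is high, so the count of 8 is a description. Of 46 miRNAs with 60% GC or more, 16 were called higher (34.8%) with a median difference of 0.55, and across the matched miRNAs the Spearman correlation of difference and GC content was 0.19, a description, since miRNAs share libraries and are not independent. The part of library depth and base composition in these rises was not tested.

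The let-7 family showed an unequal change under 1 seed. let-7i-5p, held back like its relatives by LIN28 in stem cells, stood at 43959, 41292, 36437, 43680 and 42401 RPM on day 0 and at 88541, 97729, 80966, 79341 and 152179 RPM on day 4. The days did not overlap (difference 1.22 ± 0.23, adjusted p = 0.00188). The call was lost under median-of-ratios scaling (0.85, adjusted p = 0.0478), under TMM scaling (0.82, adjusted p = 0.0564) and with DESeq2 (0.99, adjusted p = 0.0258). miR-98-5p, a member named apart from the family, lay higher on day 4 in every library but short of a call (0.90 ± 0.26, adjusted p = 0.0220). The other 7 were not called: let-7f-5p, at 61177 ± 11632 and 56062 ± 9848 RPM, differed by -0.12 ± 0.23, let-7g-5p by -0.34 ± 0.22 and let-7a-5p by -0.35 ± 0.29. The median of the 9 was -0.12. On day 0 let-7f-5p was the most abundant of the family and on day 4 let-7i-5p was.

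**Figure D3:**
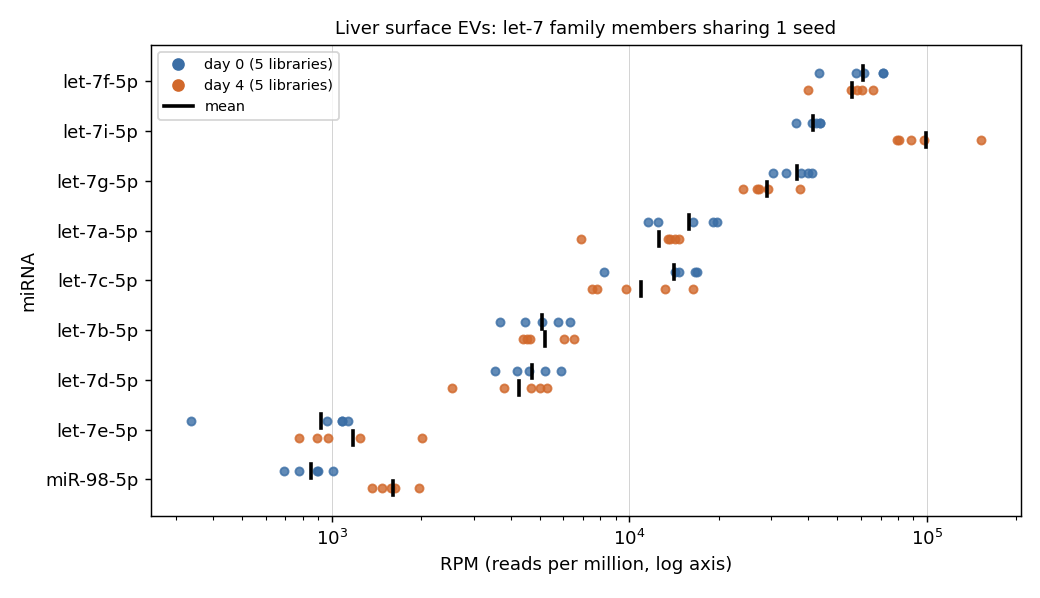
RPM (log axis) of the 9 let-7 family members with a common seed in 5 day 0 (blue) and 5 day 4 (orange) libraries, with bars at the means. let-7i-5p and miR-98-5p are the rows in which all day 4 points lie to the right of all day 0 points.

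miRNAs of the Hox clusters also split. miR-196a-5p rose from 113, 20.1, 12.6, 23.8 and 32.6 RPM on day 0 to 109.7, 248, 420.2, 171 and 342 RPM on day 4. The day 4 libraries lay above all day 0 libraries except replicate 1 (difference 2.56 ± 0.48, adjusted p = 0.00190). miR-196b-5p, with the same seed, differed by 0.83 ± 0.42 and was not called (adjusted p = 0.192). miR-615-3p, from an intron of Hoxc5, rose from 90.4 ± 22.9 to 278 ± 172 RPM (difference 1.35 ± 0.42, adjusted p = 0.0337), a call lost in 11 of 15 fits that left out a replicate number or library. miR-10a-5p (-0.68 ± 0.31, adjusted p = 0.142) and miR-10b-5p (-1.0 ± 0.50, adjusted p = 0.182) differed in the other direction without a call. Under the other scalings 2 members of the list were called lower and 1 higher, beside 37 and 38 lower and 44 and 43 higher over all 407.

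Of 8 tested hepatocyte miRNAs, 3 were called lower and none higher, beside 2.95% called lower over all miRNAs. Among the 3, miR-802-5p passed the filter of 10 RPM only through the day 0 libraries, where it is high, so this count is a description. All 8 differences were below 0, and their median was -2.01. Under the other 2 scalings 3 of the 8 were called lower, beside 37 and 38 of 407 over all miRNAs. With edgeR 4 were called lower and with DESeq2 2, beside 34 and 40 of 407. miR-192-5p, shared by liver, gut and kidney, stood at 4177, 5631, 35069, 3583 and 5884 RPM on day 0 and at 2231, 975, 1272, 610.4 and 2693 RPM on day 4. No day 4 library reached the day 0 range (difference -2.37 ± 0.59, adjusted p = 0.0114). miR-194-5p, which shares a transcript with miR-192, fell from 4600 ± 3839 to 1041 ± 349 RPM (difference -1.89 ± 0.45, adjusted p = 0.00876). miR-802-5p, a regulator of liver metabolism, was read at 31.3, 46.1, 174, 23.8 and 14.3 RPM on day 0 and at 7.70, 3.02, 0, 0 and 1.85 RPM on day 4. It fell by 2.07 ± 0.44 (adjusted p = 0.00450), and it had no read in any of the 10 pelvic peritoneum libraries. Without day 0 replicate 3, the library richest in these miRNAs, miR-192-5p still differed by -1.79, miR-194-5p by -1.49 and miR-802-5p by -1.60, all called.

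miR-122-5p, the hallmark of the hepatocyte, did not pass. It varied from 1266 to 174591 RPM on day 0 and from 94.1 to 22240 RPM on day 4, and the days overlapped (difference -3.37 ± 1.45, adjusted p = 0.120). Day 0 replicate 1, the lowest of its day, and day 4 replicate 5, the highest, stood apart. Without the former the difference was -4.32 (adjusted p = 0.0315) and without the latter -4.29 (adjusted p = 0.0494), both called, and without day 0 replicate 3 it was -2.54 (adjusted p = 0.230). miR-122b-3p followed it in each library, at a ratio of 0.189 to 0.315, and differed by -3.03 ± 1.35 (adjusted p = 0.133). Whether reads of miR-122-5p and miR-122b-3p can be separated was not tested. miR-148a-3p, abundant in liver and elsewhere, differed by -0.62 ± 0.39 (adjusted p = 0.309). The sum over the hepatocyte list was 56871 to 369380 RPM on day 0 and 30941 to 115769 RPM on day 4.

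**Figure D4:**
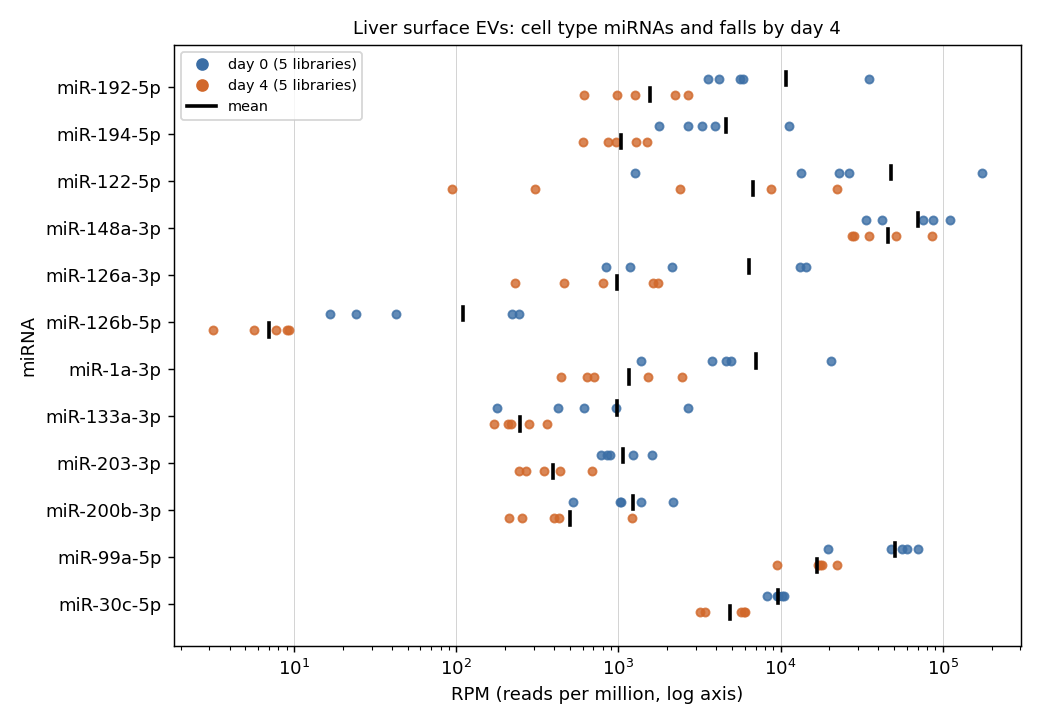
RPM (log axis) of miRNAs of hepatocytes, endothelium, muscle and epithelium and of 2 further falls in 5 day 0 (blue) and 5 day 4 (orange) libraries, with bars at the means. miR-192-5p, miR-194-5p, miR-126b-5p, miR-203-3p and miR-30c-5p are separate by day, whereas miR-122-5p spans 94.1 to 174591 RPM and overlaps.

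Of 4 endothelial miRNAs 1 was called lower and none higher, beside 2.95% called lower over all miRNAs. The called member, miR-126b-5p, passed the filter of 10 RPM only through the day 0 libraries, where it is high, so this count is a description. miR-126b-5p, read from the strand opposite to miR-126a in the Egfl7 locus of blood vessel cells, stood at 42.7, 243, 221, 16.5 and 24.1 RPM on day 0 and at 7.70, 9.07, 5.68, 3.14 and 9.25 RPM on day 4. All day 4 libraries were below all day 0 libraries (difference -2.21 ± 0.58, adjusted p = 0.0143), a call lost without replicate 3 of both days (-1.79, adjusted p = 0.0586). miR-126a-3p, the main endothelial miRNA, differed by -2.12 ± 0.83 but overlapped (adjusted p = 0.0899), with day 0 replicates 2 and 3 at 14429 and 13169 RPM and the others of that day at 843 to 2124 RPM. The median of the 4 was -1.87. All 4 were called lower with edgeR and with DESeq2, beside 34 and 40 of 407 over all miRNAs. The ratio of miR-126b-3p to miR-126a-5p was 0.914 to 1.18 on day 0 and 0.5 to 1.25 on day 4. For miR-126b-5p to miR-126a-3p it was 0.0168 to 0.0204 and 0.0047 to 0.0137. Whether reads of miR-126a and miR-126b can be separated was not tested, so the 4 may not be independent.

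Of the muscle miRNAs, 2 of 6 were called lower and none higher, beside 2.95% called lower over all miRNAs. Their median was -0.85. miR-1a-3p, which drives muscle differentiation, was at 20328, 3797, 1374, 4924 and 4585 RPM on day 0 and at 639, 1524, 709.7, 444 and 2458 RPM on day 4, with day 0 replicate 3 inside the day 4 range (difference -2.31 ± 0.64, adjusted p = 0.0187). miR-1b-5p, which tracks it at a ratio of 0.191 to 0.265, fell by 2.11 ± 0.61 (adjusted p = 0.0255). Whether reads of miR-1a-3p and miR-1b-5p can be separated was not tested, so the 2 calls may not be independent. Without replicate 1 of both days, of which that of day 0 was the richest in these, the calls of miR-1a-3p (-1.65, adjusted p = 0.0675) and miR-1b-5p (-1.46, adjusted p = 0.0853) were lost, as they were without replicate 4 (-2.03 and -1.90). miR-133a-3p, also from muscle, differed by -1.42 ± 0.57 (adjusted p = 0.0986).

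Of 8 epithelial miRNAs 1 was called lower and none higher, beside 2.95% called lower over all miRNAs. miR-203-3p, of stratified epithelium, fell from 1604, 1232, 781, 853 and 884 RPM to 437, 269, 687, 347 and 244 RPM, with no overlap (difference -1.46 ± 0.35, adjusted p = 0.00879). Without replicate 2 the call was lost (-1.28, adjusted p = 0.0649). miR-200b-3p, which guards the epithelial state, differed by -1.41 ± 0.49 (adjusted p = 0.0545), miR-200a-3p by -1.02 ± 0.57, miR-429-3p by -0.88 ± 0.50 and miR-375-3p by -2.01 ± 0.72 (adjusted p = 0.0644). The median of the 8 was -0.95, and 5 were called lower under either other scaling, beside 37 and 38 of 407 over all miRNAs. None of 7 gonad miRNAs reached the filter, and their sum stayed at or below 37.4 RPM in every library.

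miR-99a-5p, which shares a transcript with let-7c, stood at 60308, 47971, 19640, 56248 and 70647 RPM on day 0 and at 22227, 16925, 17590, 9544 and 17992 RPM on day 4. Day 0 replicate 3 was the only overlap (difference -1.53 ± 0.36, adjusted p = 0.00758, and 0.0521 without replicate 4). miR-30c-5p fell from 8286 to 10486 RPM to 3162 to 6005 RPM, with no overlap, by 1.04 ± 0.27 (adjusted p = 0.0141). Its passenger strand miR-30c-2-3p (-1.02 ± 0.31), miR-676-3p (-1.04 ± 0.30) and miR-1843a-3p (-1.17 ± 0.24) completed the 12, and of these 4 all but miR-1843a-3p lost the call without some replicates. miR-26a-5p, among the 5 most abundant miRNAs, passed on p but not on size (-0.96 ± 0.25, adjusted p = 0.0144). The share of reads on the 10 most abundant miRNAs was 57.5 ± 5.59% on day 0 and 61.6 ± 3.05% on day 4, and the difference did not pass (exact permutation p = 0.190).

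Most of these differences had a counterpart on the pelvic peritoneum of the same model. Of the 63 miRNAs higher on the liver surface, 59 were tested there, 56 differed upward and 40 were called higher. Of the 12 lower, 10 were tested, all 10 differed downward and 7 were called lower. The medians there were 1.48 and -1.35, beside 1.63 and -1.71 on the liver surface, where the miRNAs were chosen. In all, 76 of 403 were called higher and 21 lower on the pelvic peritoneum. miR-182-5p differed by 4.12 at the liver surface and 4.10 in the pelvis, and miR-1a-3p by -2.31 and -2.35. Sheets of both sites may come from the same mice, which the labels do not state.

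The difference between sites was tested itself over 446 miRNAs, and 2 were called (0.448%), with 28 at an unadjusted p under 0.05. miR-196a-5p rose on the liver surface and not on the pelvic peritoneum, where it was high already on day 0. It stood there at 739, 602, 271, 752 and 568 RPM on day 0 and at 147.5, 645, 309, 283 and 213 RPM on day 4, a difference of -0.94 ± 0.40 (adjusted p = 0.107). The difference between sites was 3.50 ± 0.65 (adjusted p = 0.0103). miR-6239 went the other way. It was near 0 in the liver surface libraries, at 0 to 3.80 RPM on day 0 and 0 to 11.0 RPM on day 4, and too low to be tested there, but went from 0 to 2.93 RPM to 14.6 to 124 RPM on the pelvic peritoneum (site difference -2.44 ± 0.52, adjusted p = 0.0233). Neither call held without replicate 3, 4 or 5 or at equal depth. miR-802-5p came next (-2.07 ± 0.49, adjusted p = 0.0531). For miR-34c-5p the rise was 3.71 on the liver surface and 2.12 in the pelvis, and the difference of 1.59 ± 0.55 did not pass (adjusted p = 0.659).

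**Figure D5:**
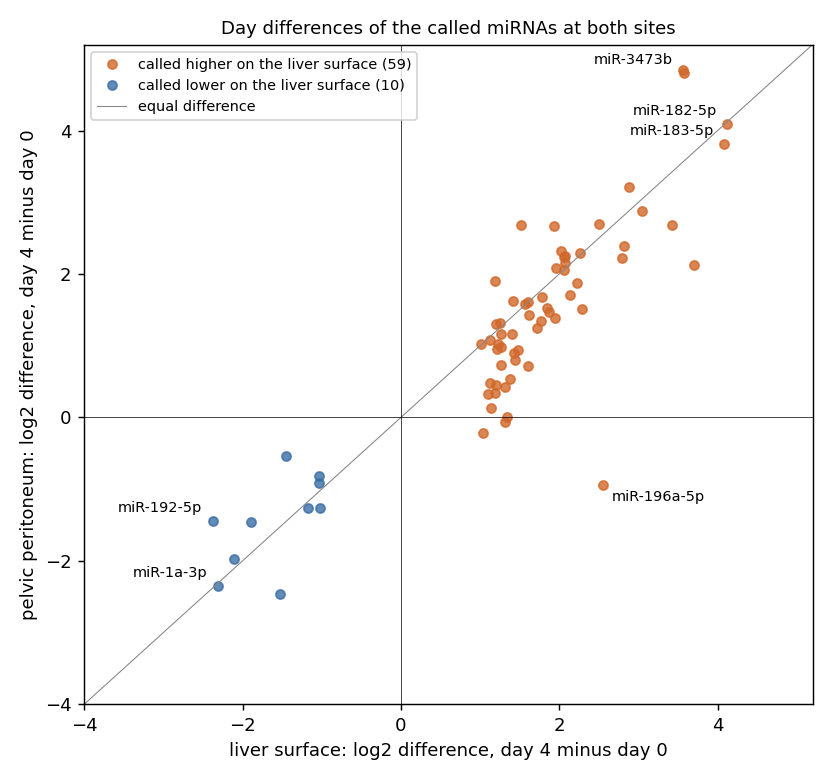
Log2 difference in RPM + 10, day 4 minus day 0, on the liver surface (x axis) and on the pelvic peritoneum (y axis) for the 69 miRNAs called on the liver surface and tested at both sites. Orange points were higher and blue points lower on the liver surface, and miR-196a-5p lies farthest below the line of equal difference, at 2.56 and -0.94.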

How the data were processed

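Small RNA was read from CNF sheet EVs of 10 liver surface sheets, 5 per day. Per the methods, reads were matched to miRBase 22 (at most 2 mismatches) in CLC Genomics Workbench 9.5.3. The values the authors deposited are RPM, miRNA reads scaled to a total of 1000000 per library. They tested with DESeq2 1.30.0 in R 4.0.3. How reads matching several miRNAs were assigned is not given in the sources used here. Dividing deposited RPM by the lowest nonzero value of the library gave whole numbers for 100% of values (tolerance 0.001), which were taken as reads, 176124 to 2540577 per library.

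miRNAs at 10 RPM or more in 5 of 10 libraries were tested with limma 3.58.1 (trend, two-sided, R 4.3.3) on log2(RPM + 10), Benjamini-Hochberg adjusted, and the call threshold was 0.05 for that p with a log2 difference over 1 in size. The pseudocount understates changes of low miRNAs. The site by day interaction used 4 groups and 20 libraries. Single values per library were tested by exact permutation. edgeR 4.0.16 and DESeq2 1.42.0 on recovered reads, other pseudocounts, filters and scalings, a replicate block, library codes and left-out libraries were alternatives. The steps were tested on simulated data.

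Whether replicate numbers pair the days is not settled (residual correlations -0.32 to 0.54), as 5 numbers are too few to decide it. All sheets of 1 number shared a library code. As nothing states separate cultures or litters, p-values measure the spread between these sheets. The text names the 12 largest rises and falls with a mean of 100 RPM in the higher day, mouse miRNAs named by the study, the 4 most abundant of each list, the 5 most abundant of all and interaction calls, in part, and all other called miRNAs or further members it names were chosen after their values were seen. The members and lists were chosen with earlier results of these data known. Loci are from GENCODE M21 and RefSeq GRCm38.p6, while the authors mapped to no genome.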

Additional observations from a re-analysis of the deposited data

Results flagged for a closer look

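Among 5 libraries of a day, 1 stood far from the other 4 for several values, a test that chance meets in about 1 of 20 groups, and 13 of the 212 groups checked here met it. Day 0 replicate 3 was such a library most often. It was the highest for miR-192-5p (35069 RPM against 3583 to 5884 RPM in the others) and miR-5100 (12.99 RPM) and the lowest for miR-21a-5p (46751 RPM against 90666 to 110762 RPM), miR-146b-5p (2138 RPM), miR-501-3p (95.3 RPM), miR-296-3p (5.12 RPM) and miR-125a-3p (2.36 RPM). It also showed the fewest miRNAs at equal depth (459). Day 0 replicate 1 was highest for miR-212-3p (4.75 RPM). On day 4, replicate 3, the shallowest library, was highest for miR-345-3p (267 RPM) and lowest for let-7a-5p (6882 RPM), and replicate 4 was lowest for miR-126b-3p (7.85 RPM) and miR-143-3p (1602 RPM).

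The day difference of miR-196a-5p was larger on the liver surface than on the pelvic peritoneum by 3.50 on the log2 scale, and that of miR-6239 was smaller by 2.44 (a difference of -2.44), by the test of the interaction.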

How the results depend on the processing

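No called miRNA changed direction under any alternative, 5 of 75 calls held under all of them, 22 more were lost only within 1 library code, and 27 were lost without some replicate number or library. Against 63 higher and 12 lower, a pseudocount of 50 RPM gave 36 and 8, a filter of 100 RPM 24 and 8, median-of-ratios scaling 44 and 37, TMM 43 and 38, edgeR 61 and 34, DESeq2 66 and 40, RPM without red blood cell and hepatocyte miRNAs 60 and 21, libraries with code NGS001 in their names alone 53 and 4, and NGS002 alone 11 and 2. Leaving out a replicate number gave 49 to 66 higher and 6 to 22 lower, with 22 lower without replicate 3 and 6 without replicate 4, and leaving out 1 library gave 50 to 73 and 10 to 19, with 19 without day 0 replicate 3. Thinning to the shallowest library, chosen after seeing the data, gave 53 and 10. The replicate block, for numbers not known to pair the days (2 of 5 sheets correlated best with their own number), gave 54 and 11.

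For the interaction, 1 miRNA higher and 1 lower, the lower count became 2 with a pseudocount of 1 RPM and 0 with 50 RPM, no filter, a filter of 100 RPM, median-of-ratios scaling or edgeR, the higher count became 2 with DESeq2, both were 0 when thinned, and both were 0 to 1 without a replicate number. miR-451a reversed with edgeR (-0.72) and DESeq2 (-0.81) and ranged from -0.46 to 0.87 without 1 library or replicate (-0.26 to 0.86 by replicate number). miR-146a-5p reversed within NGS001 (0.26) and ranged from -0.54 to 0.16 (to 0.08 by replicate number).

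Without 1 replicate number, the day differences ranged from -1442360 to -984616 reads, 36.1 to 66.9 miRNAs at equal depth, 2.85 to 7.05 percentage points for the top 10 and 0.112 to 0.156 in rank correlation. As sequenced, day 4 libraries held 119.8 fewer miRNAs (-119.8). Permuting within the replicate block gave an adjusted p of 0.0833 for the reads (-1260580), miRNAs at equal depth (54.3) and rank correlation (0.136). With so few replicate numbers to permute, each of these measures was at the smallest p this permutation allows. None of them could have passed, so the block permutation cannot decide whether they hold. Depth limits miRNAs under 10 RPM, which the shallowest library reads at under 2 reads.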
